A study of Schizosaccharomyces pombe with 4 samples.

Results

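The 8 genes *mei4*, *rec8*, *rec10*, *ssm4*, *mcp5*, *spo5*, *crs1* and *mes1* encode meiotic proteins whose mRNAs are known targets of Mmi1 in the fission yeast *Schizosaccharomyces pombe*. They were chosen by identifier, as known Mmi1 targets and not by their level in these libraries, though with earlier results of these data known. They are 8 of 12684 annotated features, of which 5113 are protein-coding. The counts come from vegetative cells in minimal medium, which were haploid, of the h- mating type, and carried leu1-32 and pat1-L95G::kanR. The *pat1-L95G* allele encodes a form of the Pat1 kinase that an added ATP analogue can inhibit, and no inhibitor treatment is described for these samples. All libraries share this strain, so that no culture with another state of Mmi1 was compared. There were 2 libraries of total RNA depleted of ribosomal RNA, and 2 libraries of poly(A)+ RNA bound to oligo(dT) beads, and the labels call the replicates biological. Each library held 25530272 to 30650533 counts.

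Mmi1 is an RNA-binding protein with a YTH domain. In growing cells it recognises meiotic transcripts by a region called the determinant of selective removal, which is rich in the hexamer UNAAAC, and hands them to the nuclear exosome with the help of the Mtl1-Red1 core and of poly(A)-tail synthesis and binding by Pla1 and Pab2. The transcripts are thereby kept low until cells enter meiosis, when the meiotic regulator Mei2 together with the non-coding *meiRNA* takes Mmi1 out of action. The 8 proteins act at different stages. Mei4 is a forkhead transcription factor of meiotic genes, Rec8 is the meiotic cohesin subunit and Rec10 is a component of the linear elements on which recombination takes place. Ssm4 is a dynactin-like protein and Mcp5 anchors dynein at the cell cortex, and both serve the nuclear movement of meiotic prophase. Spo5 is an RNA-binding protein needed for meiotic progression and spore formation, Crs1 is a meiosis-specific cyclin, and Mes1 inhibits the anaphase-promoting complex so that cells can enter the second meiotic division.

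On the RefSeq assembly ASM294v3, whose coordinates equal those of the files for all 8 genes at both ends, the annotation placed *mei4* (SPBC32H8.11) at chrII:1473068-1475285 on the plus strand, *rec8* (SPBC29A10.14) at chrII:2568938-2570993 on the plus strand, *rec10* (SPAC25G10.04c) at chrI:4301367-4303893 on the minus strand and *ssm4* (SPAC27D7.13c) at chrI:4534674-4536736 on the minus strand. It placed *mcp5* (SPBC216.02) at chrII:898056-901363 on the plus strand, *spo5* (SPBC29A10.02) at chrII:2536150-2538254 on the plus strand, *crs1* (SPBC2G2.09c) at chrII:3452323-3453516 on the minus strand and *mes1* (SPAC5D6.08c) at chrI:1498898-1500084 on the plus strand. *mei4*, *rec10*, *ssm4* and *mcp5* have a single exon, *mes1* has 1 intron, *spo5* has 2, and *rec8* and *crs1* have 4 each. The annotated proteins range from 101 residues for Mes1 to 968 for Mcp5.

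The sense strand of each gene was searched for the hexamer written in DNA letters as TNAAAC, where N is any base. The following stretches are shown because they hold the densest hexamers that lie in a coding exon of each gene within 100 nucleotides. They were read 5′ to 3′ along the gene from the same assembly, and the capitals mark the hexamer.
mei4 (chrII:1473878-1473970, plus strand): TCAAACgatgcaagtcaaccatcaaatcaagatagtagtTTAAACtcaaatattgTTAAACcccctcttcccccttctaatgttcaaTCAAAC
rec8 (chrII:2570136-2570170, plus strand): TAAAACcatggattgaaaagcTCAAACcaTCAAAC
rec10 (chrI:4303634-4303709, minus strand): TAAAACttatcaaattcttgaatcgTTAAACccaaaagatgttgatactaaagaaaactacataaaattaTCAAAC
ssm4 (chrI:4535172-4535269, minus strand): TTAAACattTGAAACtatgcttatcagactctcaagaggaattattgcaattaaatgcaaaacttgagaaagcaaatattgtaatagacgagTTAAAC
mcp5 (chrII:899614-899712, plus strand): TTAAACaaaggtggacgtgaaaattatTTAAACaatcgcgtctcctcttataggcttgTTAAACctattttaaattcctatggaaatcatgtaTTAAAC
spo5 (chrII:2537534-2537627, plus strand): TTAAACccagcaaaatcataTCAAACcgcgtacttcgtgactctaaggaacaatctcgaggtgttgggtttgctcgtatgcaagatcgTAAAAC
crs1 (chrII:3452385-3452450, minus strand): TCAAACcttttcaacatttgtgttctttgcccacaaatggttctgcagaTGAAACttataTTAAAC
In *mei4* and *mcp5* the stretches held 4 hexamers, and in *rec8*, *rec10*, *ssm4*, *spo5* and *crs1* they held 3. *rec8* placed its 3 hexamers within 35 nucleotides. No such cluster was found in *mes1*, which had 2 hexamers in 1187 nucleotides and never more than 1 in 100.

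The sense strands of 7 of the 8 genes were rich in the hexamer. Over the whole gene, introns included, *rec8* had 16 hexamers or 7.78 per 1000 nucleotides, a density that 0.235% of the 5113 protein-coding genes reached or exceeded. *crs1* had 9 hexamers (7.54 per 1000, reached by 0.254%) and *spo5* had 14 (6.65 per 1000, reached by 0.489%). These genes stood far above the median protein-coding gene, which had 1.65 per 1000. *ssm4* had 13 hexamers (6.30 per 1000, reached by 0.587%), *mcp5* had 19 (5.74 per 1000, reached by 0.919%), *mei4* had 11 (4.96 per 1000, reached by 1.6%) and *rec10* had 11 (4.35 per 1000, reached by 2.91%). *mes1* stood at 1.68 per 1000, close to the median, and 48.5% of protein-coding genes were at least as dense. The hexamer is short and 90.7% of protein-coding genes held it at least once, so a match is a description of the letters and not a site of binding.

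**Figure D1:**
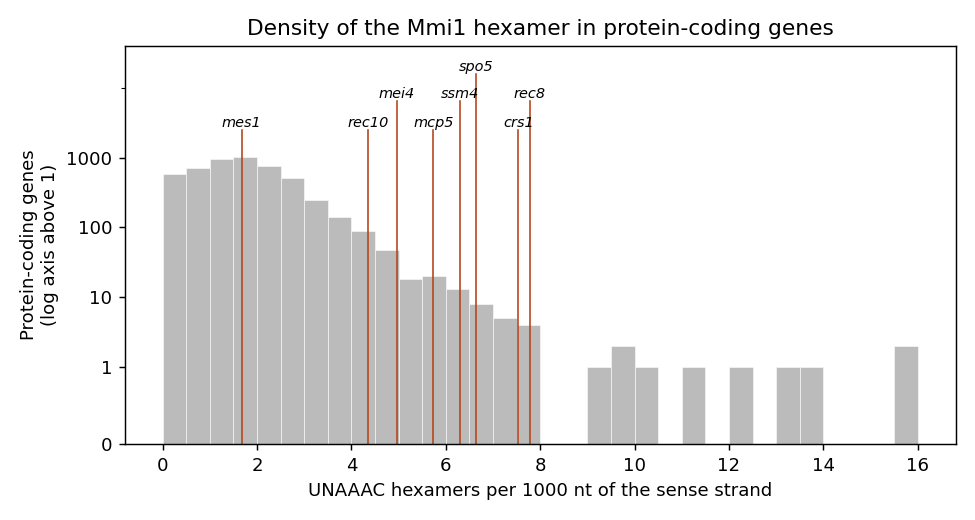
Density of the hexamer UNAAAC on the sense strand of 5113 protein-coding genes. The x axis gives hexamers per 1000 nt and the y axis the number of genes per bin of 0.5 (linear to 1, logarithmic above). Vertical lines mark the 8 genes, of which *mes1* lies at 1.68 near the median of 1.65 and the other 7 lie between 4.35 and 7.78.

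The hexamers were not spread in the same way along each gene. With each gene cut into 3 equal parts, the third part of *spo5* held 10 of its 14 hexamers, and up to 6 fell within 100 nucleotides, the most of any protein-coding gene. In *rec8* the third part held 10 of 16, with up to 5 within 100 nucleotides, a number that 2 protein-coding genes reached. In *mei4*, by contrast, the third part held 1 of 11 and the first held 4. In *rec10* the first part held 6 of 11. Of 93 hexamers in the 7 genes without *mes1*, 74 lay wholly within 1 coding exon. The opposite strands of the 8 genes held 51 hexamers against 95 on the sense strands. The strands were nearly equal in *mei4*, with 11 on the sense strand and 10 on the other, and equal in *rec10*, with 11 on each.

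**Figure D2:**
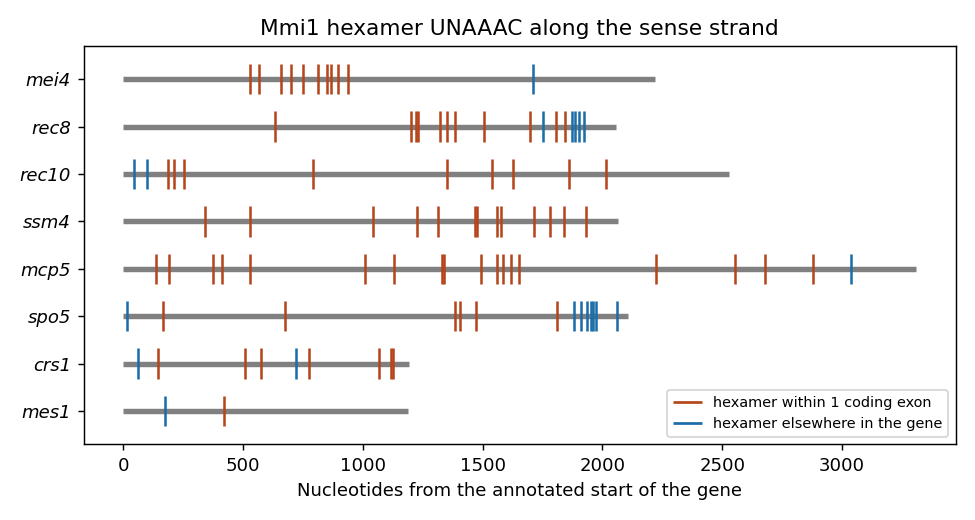
Positions of the hexamer UNAAAC on the sense strand of the 8 genes. The x axis gives nucleotides from the annotated start of the gene, the grey bars are the genes and each tick is a hexamer, red where it lies within 1 coding exon and blue elsewhere. The 2 hexamers of *mes1* contrast with the 9 of *crs1*, a gene of nearly the same length.

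In vegetative cells 7 of the 8 mRNAs were among the lowest protein-coding genes in every library. Levels were ranked within each library as the percentage of the 5113 protein-coding genes with fewer counts per nucleotide, which needs no scaling between libraries. A rank also depends on the other genes, so a lower rank in 1 fraction need not mean that the gene itself was lower there. Without *mes1*, a grouping chosen after the values were seen, the genes ranked between percentiles 4.19 and 8.57 in the total RNA libraries and between 1.88 and 3.38 in the poly(A)+ libraries. The 7 genes together drew 719 and 660 counts in total RNA, or 23.5 and 22.7 CPM (counts relative to the library total), and 274 and 395 counts in poly(A)+ RNA, or 10.7 and 13 CPM. Each had at least 14 counts in every library, whereas 33 to 46 protein-coding genes had no count in a library. In poly(A)+ RNA these counts can include reads of overlapping features, so they do not by themselves show that the gene's own transcript was present. The rank depended on the genes compared. Among the 516 protein-coding genes with no feature on the opposite strand, the 7 genes had mean percentiles of 9.88 to 13.5 in total RNA, so that 1 of them was below percentile 10, and of 6.88 to 9.59 in poly(A)+ RNA, where all 7 were.

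The transcription factor gene *mei4* had 99 and 98 counts in the total libraries, against 31 and 59 in the poly(A)+ libraries. These counts placed it at percentiles 5.59 and 5.63 in total RNA, against 2.46 and 2.72 for poly(A)+ RNA. It was thus low in all 4 libraries and ranked lower in the poly(A)+ ones.

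Among the genes of chromosome structure, the cohesin gene *rec8* had 93 and 98 counts in the total libraries, against 24 and 22 in the poly(A)+ libraries, at percentiles 5.69, 5.83, 2.27 and 1.88. The linear element gene *rec10* had 193 and 164 counts in the total libraries, against 53 and 116 in the poly(A)+ libraries, at percentiles 7, 6.59, 2.84 and 3.38. The total RNA libraries of each gene lay close together. The poly(A)+ libraries of *rec10* were 1.65-fold apart once scaled for depth, the widest spread among the 8 genes in either fraction.

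Among the genes of nuclear movement, *ssm4* had 71 and 76 counts in the total libraries, against 24 and 26 in the poly(A)+ libraries, at percentiles 4.97, 5.34, 2.25 and 1.98. The dynein anchor gene *mcp5* had 89 and 80 counts in the total libraries, against 94 and 117 in the poly(A)+ libraries, at percentiles 4.34, 4.48, 3.09 and 3.07. Their ranks were close in total RNA, but *mcp5* ranked above *ssm4* in both poly(A)+ libraries.

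For the later stages, *spo5* had 48 and 44 counts in the total libraries, against 14 and 27 in the poly(A)+ libraries, at percentiles 4.19, 4.24, 1.98 and 1.99. The cyclin gene *crs1* had 126 and 100 counts in the total libraries, against 34 and 28 in the poly(A)+ libraries, at percentiles 8.57, 7.78, 3.11 and 2.58. *spo5* was the lowest of the 8 in total RNA and *crs1* the highest after *mes1*.

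*mes1* stood apart from the other 7. It had 885 and 875 counts in total RNA, at percentiles 48.9 and 49.3, and 1031 and 1276 in poly(A)+ RNA, at percentiles 66 and 65.4. Its mRNA thus ranked near the middle of all protein-coding genes in total RNA, without overlap with the other 7 in any library.

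**Figure D3:**
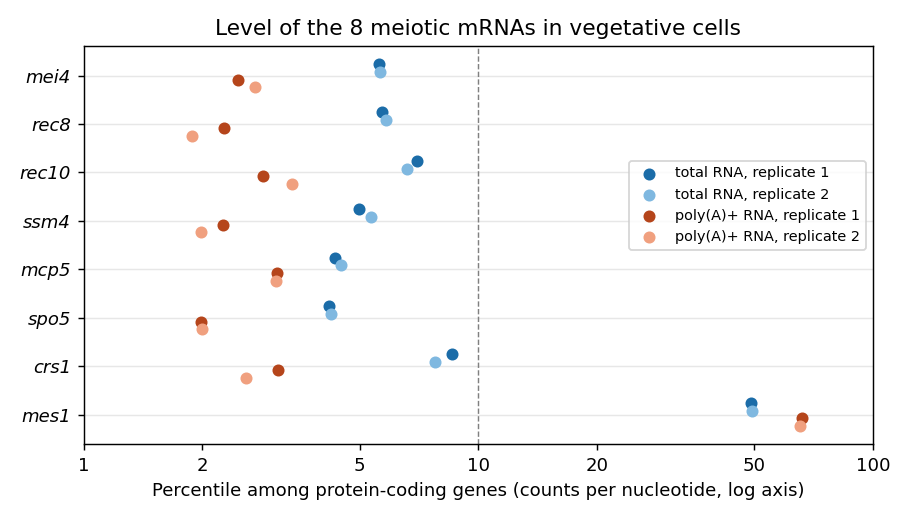
Percentile of the 8 genes among 5113 protein-coding genes in each library. The x axis is logarithmic and ranks counts per nucleotide, each point is 1 library, and the dashed line marks percentile 10. Of the 8 genes, 7 lie left of the line in all 4 libraries, and *mes1* lies between 48.9 and 66. Ranked only among genes with no opposite-strand feature, 1 of the 8 is below percentile 10 in total RNA.

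On the RPKM scale (counts divided by gene length and by library size, the latter scaled by TMM factors), the mean levels in total RNA ran from 0.948 ± 0.0179 (SD, n = 2) for *spo5* through 1.11 ± 0.0363 for *mcp5*, 1.55 ± 0.14 for *ssm4*, 1.93 ± 0.0683 for *mei4* and 2.02 ± 0.161 for *rec8* to 3.06 ± 0.222 for *rec10* and 4.1 ± 0.494 for *crs1*. *mes1* reached 32.2 ± 1.11, near the median protein-coding gene at 33.8 and 34.6 in the total RNA libraries. Only *mei4* and *rec8* were neighbours in this order whose libraries overlapped. In poly(A)+ RNA the neighbours were closer. *spo5* at 0.261 ± 0.0685, *rec8* at 0.315 ± 0.0809 and *ssm4* at 0.337 ± 0.0476 overlapped with each other. *mei4* at 0.543 ± 0.138 overlapped with *crs1* at 0.737 ± 0.243, which overlapped with *mcp5* at 0.879 ± 0.0383 and *rec10* at 0.887 ± 0.309. *mes1* stood at 26.8 ± 1.27, above the median protein-coding gene, which was at 17.1 and 17.2 in the poly(A)+ libraries. Fewer cells that hold a transcript and less of it per cell cannot be told apart in such bulk samples.

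Neighbouring and antisense features could add counts to the 8 genes, and every gene had at least 1 annotated feature on the opposite strand. These were 13 features, 10 lncRNAs and 3 protein-coding genes, and 89.9% of all protein-coding genes had such a partner. How far the strands were kept apart was read from lncRNAs that lie within a protein-coding gene of the other strand and cover at least 80% of it, in 100 such pairs. In total RNA the lncRNA had a median of 0.0172 and 0.0208 times the counts of its host, and exceeded it in 1 of 100 pairs in each library. In poly(A)+ RNA the median was 0.946 and 0.944, and the lncRNA exceeded its host in 29 and 25 of 100 pairs. The 2 features of a pair thus drew nearly the same counts in poly(A)+ RNA, so a poly(A)+ count of either can include reads of the other strand. The paper's methods describe the total RNA libraries as directional and do not say so of the poly(A)+ libraries. Reads of the other strand add to a gene's counts, and no count of the 8 genes was corrected for them.

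For *mcp5* and *rec8* the opposite strand was detected in total RNA as well. The lncRNA SPNCRNA.1397 spans the whole of *mcp5* and had 116 and 108 counts in the total libraries, against 82 and 127 in the poly(A)+ libraries. Per nucleotide this was 1.23 and 1.27 times the level of *mcp5* in total RNA, and 0.821 and 1.02 times in poly(A)+ RNA. The shorter SPNCRNA.566, within the same gene, had 17 and 16 counts in total RNA, a level per nucleotide 1.14 and 1.19 times that of *mcp5*, and 16 and 12 in poly(A)+ RNA. In total RNA both features antisense to *mcp5* thus had higher levels per nucleotide than *mcp5* itself in each library. SPNCRNA.566 lies within SPNCRNA.1397 on the same strand, so the same RNA could underlie both values. SPNCRNA.5714, which covers 90.4% of *rec8*, had 61 and 62 counts in the total libraries (0.725 and 0.7 times the level of *rec8* per nucleotide), against 44 and 32 in the poly(A)+ libraries (2.03 and 1.61 times).

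For *mes1* the opposite strand was nearly silent in total RNA. SPNCRNA.2665, nested in *mes1*, had 10 and 16 counts there and 833 and 1039 in poly(A)+ RNA. Its level per nucleotide was 0.0176 and 0.0285 times that of *mes1* in total RNA and 1.26 and 1.27 times in poly(A)+ RNA. SPNCRNA.2664, which overlaps the start of *mes1* by 170 nucleotides, had 3 and 1 counts in the total libraries, against 190 and 197 in the poly(A)+ libraries. The 875 and 885 counts of *mes1* in total RNA thus stood beside at most 17 counts of its opposite-strand features.

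Within *mei4*, SPNCRNA.5202 had 1 and 5 counts in the total libraries, against 12 and 52 in the poly(A)+ libraries, and SPNCRNA.5201 had no count in 3 libraries and 12 in the fourth, poly(A)+ replicate 2. On its own strand the start of *mei4* overlaps the end of *cdk9*, a kinase gene of the transcription machinery, by 115 nucleotides. At even coverage of *cdk9* this overlap would hold 37.6 and 35.6 of its counts in total RNA, with 26.2 and 43.5 for poly(A)+ RNA, while there were 99, 98, 31 and 59 counts of the whole of *mei4*. How reads of the overlap were assigned is not stated in the sources used here, and their part in the counts of *mei4* was not tested.

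*ssm4* shares 1179 nucleotides with SPNCRNA.4052, a longer lncRNA that had 210 and 196 counts in the total libraries, against 1433 and 1880 in the poly(A)+ libraries, while *ssm4* itself stayed at 24 and 26 counts in poly(A)+ RNA. SPNCRNA.4051 had no count in total RNA, against 6 and 9 for poly(A)+ RNA. At even coverage the shared part of SPNCRNA.4052 would hold 322.9 and 423.6 poly(A)+ counts, more than 10 times the poly(A)+ counts of *ssm4*. How its reads were spread, and how many were counted for *ssm4*, was not tested.

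The other 3 genes had a protein-coding partner. *crs1* shares 444 nucleotides with *ade9*, a gene of folate metabolism, which had 4387 and 4274 counts in the total libraries, against 902 and 1937 in the poly(A)+ libraries. *rec10* shares 36 nucleotides with *zip1*, which encodes a bZIP transcription factor and had 10459 and 10506 counts in the total libraries, against 11213 and 12201 in the poly(A)+ libraries. *spo5* shares 127 nucleotides with *pcf1*, a gene of chromatin assembly, which had 627 and 620 counts in the total libraries, against 486 and 578 in the poly(A)+ libraries. In total RNA, the median level of a nested lncRNA of any length was 0.0109 times that of its host per nucleotide. A leak of that size from the shared stretch at even coverage would add 5.5 and 5.36 counts to *crs1*, 2.58 and 2.6 to *rec10*, and 0.468 and 0.462 to *spo5*, against 100 to 126, 164 to 193, and 44 to 48 counts. In poly(A)+ RNA the shared stretches at even coverage would hold 103.7 and 222.7 counts for *ade9*, 254.2 and 276.6 for *zip1*, and 33.2 and 39.5 for *pcf1*. These are more than all poly(A)+ counts of *crs1*, *rec10* and *spo5* in the same library, and how much of the poly(A)+ counts of these genes came from their partners was not tested. *rec10* also has the nested SPNCRNA.3930, with 5 and 4 counts in the total libraries, against 2 and 19 in the poly(A)+ libraries.

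**Figure D4:**
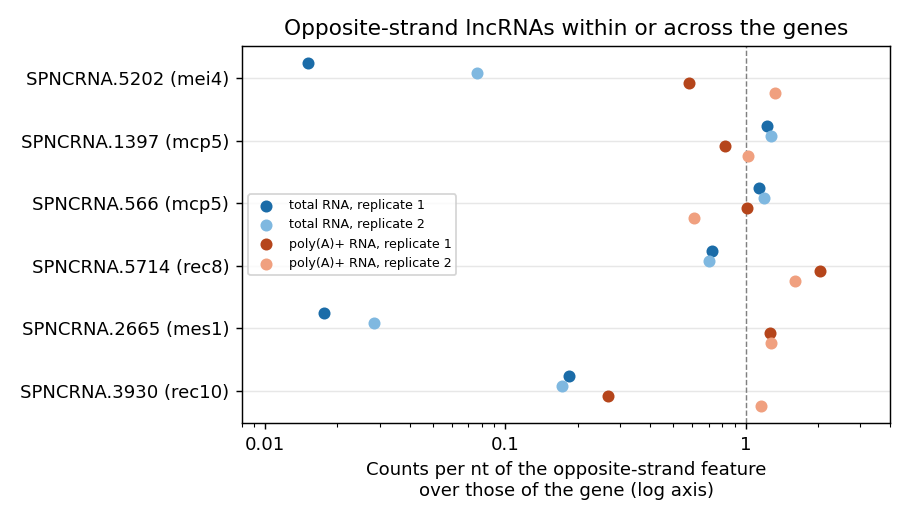
Level per nucleotide of lncRNAs that lie within, or span, one of the 8 genes on the opposite strand, divided by the level of that gene in the same library. The x axis is logarithmic, each point is 1 library, the dashed line marks equal levels, and SPNCRNA.5201 is left out because it had no count in total RNA. The ratio for SPNCRNA.2665 rose from 0.0176 and 0.0285 in total RNA to 1.26 and 1.27 in poly(A)+ RNA, whereas those of the *mcp5* partners were between 0.611 and 1.27 in all libraries.

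Poly(A)+ RNA was then compared with total RNA for the 8 genes. Of the 8 genes, 6 were lower in poly(A)+ RNA, none was higher, and *mcp5* and *mes1* did not pass the threshold (edgeR's quasi-likelihood test over 11234 features, adjusted p under 0.05, n = 2 against 2). The median log2 fold change of the 8 genes was -1.83, against -0.93 over the 5008 protein-coding genes tested and 0.84 over all features tested. Of all features 35.5% were called lower, but of protein-coding genes 72.4% were called lower and 7.89% higher, so 6 of 8 is near the share among protein-coding genes. For this reason each fold change is followed by its distance from the protein-coding median.

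*rec8* fell by 2.69 ± 0.37 on the log2 scale (SE, edgeR's adjusted p = 0.00066), the largest change of the 8 genes, which left it at -1.76 relative to the median protein-coding gene. *crs1* fell by 2.49 ± 0.38 (adjusted p = 0.001 by edgeR) and stood at -1.56 relative to that median. *ssm4* fell by 2.20 ± 0.36 (adjusted p = 0.0015 by edgeR) and stood at -1.27. The share of protein-coding genes with a still lower fold change was 2.36% for *rec8*, 3.51% for *crs1* and 6.45% for *ssm4*.

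*spo5* fell by 1.84 ± 0.41 (adjusted p = 0.0058 by edgeR), *mei4* fell by 1.81 ± 0.34 (adjusted p = 0.0028) and *rec10* fell by 1.78 ± 0.33 (adjusted p = 0.0028). They stood at -0.91, -0.88 and -0.84 relative to the median protein-coding gene. The log2 fold change of *mcp5* was -0.33 ± 0.28 (adjusted p = 0.3 by edgeR) and that of *mes1* -0.27 ± 0.14 (adjusted p = 0.12), which placed them 0.60 and 0.67 above the median protein-coding gene. SPNCRNA.1397, which spans *mcp5* on the other strand, had 82 and 127 poly(A)+ counts against 94 and 117 for *mcp5*. Poly(A)+ counts can include reads of the other strand, so how much of this value belongs to the *mcp5* transcript itself was not tested.

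Some of these calls moved with the scaling between the fractions. With TMM factors taken from protein-coding genes only, the median of all features moved from 0.84 to 1.81 and that of protein-coding genes from -0.93 to 0.04. Of the 8 genes, 3 were then lower, namely *rec8* at -1.72 (edgeR's adjusted p = 0.0071), *crs1* at -1.52 (adjusted p = 0.013) and *ssm4* at -1.23 (adjusted p = 0.023). *mes1* was higher at 0.71 (adjusted p = 0.0043 by edgeR), and *mei4* at -0.85, *spo5* at -0.87, *rec10* at -0.81 and *mcp5* at 0.64 did not pass. In this fit 24.4% of protein-coding genes were lower and 26.3% higher. Only *rec8*, *crs1* and *ssm4* were called lower in the main comparison and in all 12 alternatives to it. Kit, read length, sequencing instrument, trimming and how far the strands were kept apart changed together with the RNA fraction. Their part and that of the poly(A) tail cannot be told apart.

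**Figure D5:**
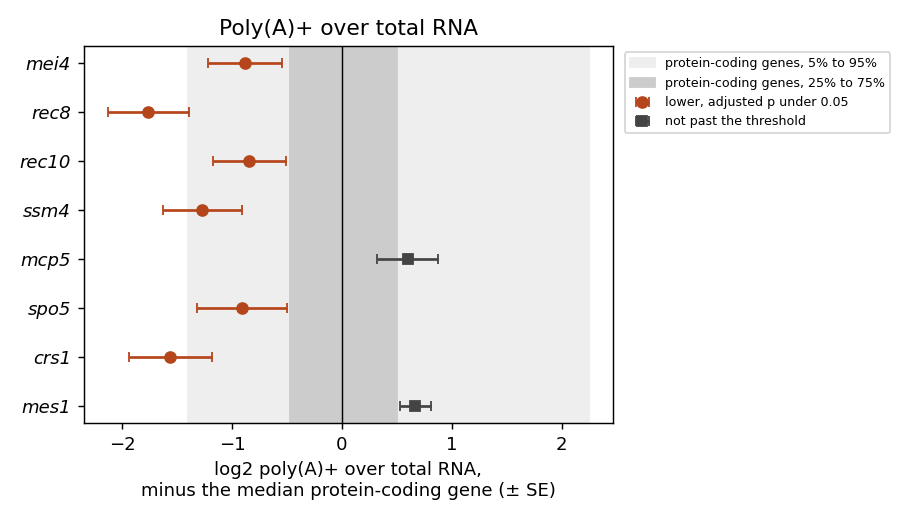
Log2 fold change of poly(A)+ over total RNA for the 8 genes minus the median over protein-coding genes, with the standard error (n = 2 libraries per fraction). Grey bands hold the central 50% and 90% of protein-coding genes, round points passed an adjusted p of 0.05 as lower before the median was subtracted, and squares did not pass. *rec8* and *crs1* lie left of the 90% band at -1.76 and -1.56, and *mcp5* and *mes1* lie right of the median at 0.60 and 0.67.

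Other genes of the same pathway and stages were compared as lists. Of all protein-coding genes tested, 72.4% were called lower in poly(A)+ RNA and 7.89% higher. With factors from protein-coding genes these shares were 24.4% and 26.3%, and the counts of each list stand beside them. Of 4 further Mmi1 targets that could be matched, 3 were lower in poly(A)+ RNA and 1 was higher, and with factors from protein-coding genes 2 were lower and 1 higher. *mug8* had 2043 and 2001 counts in the total libraries, against 424 and 464 in the poly(A)+ libraries, and fell by 2.83 ± 0.16 (adjusted p = 1.7e-05 by edgeR). It ranked at percentile 52.3 in total RNA, the highest of these, and at 12.8 in poly(A)+ RNA. *mug9*, which has no feature on the other strand, had 83 and 56 counts in the total libraries, against 14 and 20 in the poly(A)+ libraries, and fell by 2.68 ± 0.40 (adjusted p = 0.00097 by edgeR). *mcp7* fell by 1.21 ± 0.26 (adjusted p = 0.0049 by edgeR), a call lost with factors from protein-coding genes (-0.24, adjusted p = 0.44), and *meu1*, the lowest at percentile 4.81, was higher by 1.03 ± 0.27 (adjusted p = 0.012).

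Of 18 genes of meiotic recombination, linear elements and meiotic centromeres, 15 ranked below percentile 10 in total RNA, and the range was from *mde2* at 2.41 to *rec14* at 52. Of 17 tested, 5 were lower in poly(A)+ RNA and 8 higher, with a median log2 fold change of -0.66. With factors from protein-coding genes 2 were lower and 8 higher, and the median turned to 0.31. Of the 18, 16 had a feature on the opposite strand. The largest log2 fold changes among the genes called higher, named after their values were seen, were 6.13 for *mde2* and 5.79 for *dmc1*. The smallest was 1.48, for *rec24*. *dmc1*, which encodes the meiotic strand-exchange protein, had 17 and 15 counts in the total libraries, against 1662 and 1005 in the poly(A)+ libraries. *mde2* had 8 and 5 counts against 566 and 909. Both genes have an opposite-strand feature, and how much of their poly(A)+ counts came from it was not tested. *moa1*, a meiotic kinetochore gene, had 3 and 4 counts in total RNA and none in poly(A)+ RNA, and was not tested.

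Of 9 genes of nuclear oscillation and telomere clustering, 6 ranked below percentile 10 in total RNA, and 5 were lower, 2 higher and 2 not called in poly(A)+ RNA (1, 3 and 5 with factors from protein-coding genes). The dynein heavy chain gene *dhc1*, named after its value was seen, fell by 4.05 ± 0.22 (adjusted p = 1.4e-05 by edgeR), from 6171 and 6458 counts in total RNA to 616 and 563 in poly(A)+ RNA. The highest in total RNA was *dlc1*, a dynein light chain gene at percentile 84.3, and the lowest was *mcp6*, also called *hrs1*, at 3.71. Of 15 genes of spore formation, 9 ranked below percentile 10, from *spo4* at 1.95 to *agn2* at 56.4, and 7 were lower, 6 higher and 2 not called (4, 6 and 5 with factors from protein-coding genes, where the median log2 fold change turned from -0.55 to 0.42).

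The 13 genes listed for the elimination machinery, which include that of its inhibitor Mei2, ranked above the 7 low genes in the same cells. They lay between percentiles 27.5 and 86 in total RNA, with *red1* lowest, *mei2* highest and *pab2* next at 83.6, and *mmi1* had 4317 and 4245 counts at percentiles 70 and 70.2. All 13 were lower in poly(A)+ RNA, as were 72.4% of protein-coding genes, with a median log2 fold change of -1.15 beside -0.93 for protein-coding genes. With factors from protein-coding genes, however, 5 were lower and 1 higher (median -0.18). For *mei4*, *rec8*, *crs1* and *mes1*, 5 mitotic genes were listed. They ranked from percentile 11.4 for the forkhead gene *fkh2* to 83.4 for the cyclin gene *cdc13*. The mitotic cohesin gene *rad21* had 1562 and 1633 counts in total RNA, where *rec8* had 93 and 98. All 5 fell in poly(A)+ RNA, with a median log2 fold change of -1.05, and none was called with factors from protein-coding genes (median -0.08).

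The genes with the most similar profile of levels over the 4 libraries were sought among 478 protein-coding genes without a feature on the opposite strand, by the distance to the median profile of the 8 genes on the log2(RPKM + 0.1) scale. The nearest was *tht2*, at a distance of 0.76, with 36 and 32 counts in the total libraries, against 11 and 21 in the poly(A)+ libraries. *mug9* followed at 1.45, and SPAC343.21 at 1.89, with 27 and 30 counts in the total libraries, against 49 and 49 in the poly(A)+ libraries.

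The labelled cell type was checked against marker genes. The M-factor and transporter genes *mfm1*, *mfm2*, *mfm3* and *mam1* and the pheromone receptor gene *mam2*, which mark h- cells, ranked at percentiles 90.3 to 99.6 in total RNA, while the P-cell gene *map2* ranked at 3.76 and *map3* at 11.2. In poly(A)+ RNA, however, *map3* ranked at 43.8 and 51.8 and was called higher by 1.31 ± 0.19 on the log2 scale (adjusted p = 0.00092 by edgeR), and it has a feature on the opposite strand. The mating type genes *mat1-Mc* and *mat1-Mi* had 2 to 6 counts in total RNA, and *mat1-Mc* has an identical silent copy with which it could share reads. Genes of growing cells such as *act1* and *pgk1* ranked at 99.6 to 99.8. Of 4 spore genes, *isp3* and *meu10* ranked below percentile 10 and *spo3* and *agn2* did not.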

How the data were processed

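The authors extracted RNA with hot acid phenol, made total RNA libraries with the TruSeq Stranded Total RNA Gold kit and poly(A)+ libraries with the Novogene NGS RNA Library Prep Set, aligned reads with STAR 2.6.1d and counted them on genes with featureCounts of Subread 2.0.6. The deposited counts were not normalized; the genome build and the strand options of counting are not given in the sources used here. The fields were taken by position, because the header stands 1 field to the right of the values. Identifiers were matched to RefSeq ASM294v3 for 99.4% of 12684 features.

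Counts were tested with edgeR 4.0.16 in R 4.3.3 (TMM, filterByExpr, glmQLFTest, Benjamini-Hochberg over 11234 features, threshold 0.05), after a check on simulated data. The simulated data held 200 features changed 4-fold up or down among 11206, of which 198 were recovered, with 10 false calls. With so few changes they cannot show which scaling between the fractions is right. The standard error is the size of the log2 fold change divided by the square root of F. Gene length is the genomic span. The 8 genes, the lists and the rules for naming genes (all 8, every overlapping feature, the extremes of each list, the 3 nearest profiles) were chosen with earlier results of these data known. Genes of a list named beyond that rule were chosen after their values were seen. The symbol *hrs1* was matched to *mcp6*, since RefSeq gives that symbol to another gene; *sme2* was not analysed here. Percentiles, ratios and hexamers were computed in Python 3.11.15 without tests. Alternatives were other scalings, DESeq2 1.42.0, filters, a replicate block and each library left out.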

Additional observations from a re-analysis of the deposited data

How the results depend on the processing

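Of the 6 genes called lower in poly(A)+ RNA, *rec8*, *crs1* and *ssm4* were called under all 12 alternatives, and all 6 under DESeq2's size factors, DESeq2's Wald test, other filters and each library left out in turn. With library totals only, 1906 of all features were lower and 6370 higher, and 1 of the 8 genes was higher. With TMM factors from protein-coding genes 1431 features were lower and 6843 higher, and of the 8 genes 3 were lower and 1 was higher. Among features without an opposite-strand feature and the 8 genes, a set chosen after seeing the data, 392 features were called, 219 lower and 173 higher because fewer features were tested, and 1 of the 8 genes was higher. In these 3 settings the direction turned for *mcp5* (0.41, 0.64 and 0.38) and *mes1* (0.48, 0.71 and 0.45), and the calls of *spo5* (-1.08, -0.87 and -1.12) and *rec10* (-1.01, -0.81 and -1.05) were lost, as was that of *mei4* (-0.85) with protein-coding factors. DESeq2's size factors and its Wald test called all 8 genes lower, with *mcp5* at -0.84 and *mes1* at -0.77 in each. Of all features they called 4758 and 4720 lower, against 3992 in the main comparison, where 72.4% of protein-coding genes were already lower. Why the scalings differ in these calls was not tested.

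The replicate block kept the same 6 calls (*mei4* -1.84, for example) and 9418 called features against 9578. The labels do not say that a replicate number marks a shared culture, and deviations of same-numbered libraries had a correlation of -0.0175. The 2 poly(A)+ libraries differed more from each other than the 2 total RNA libraries did (chi-square per degree of freedom 114 against 8.6). The dispersion of each feature was fitted over both fractions together, so the standard errors do not reflect this difference. Leaving out each library gave 6 lower genes in every case.

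The median percentile of the 8 genes, 5.69 in total and 2.65 in poly(A)+ RNA, was 7.22 and 3.4 for counts not divided by length. It was 11.8 and 8.62 among genes without an opposite-strand feature (where 1 of the 8 genes, not 7, was below percentile 10 in total RNA), 4.7 and 1.64 among genes with at least 10 counts, 2.66 in poly(A)+ RNA per exonic nucleotide, and 2.65 to 2.65 with either poly(A)+ library alone. The median ratio of opposite-strand features to the gene in total RNA was 1.08 per nucleotide and 2.15 for counts not divided by length. In poly(A)+ RNA it was 8.31 per nucleotide, 5.12 and 11.5 with either library alone, and 12.8 for counts not divided by length. In both fractions these ratios take each feature over its whole length, also outside the gene, so they are not levels of antisense RNA over the gene alone. That of *rec10* per nucleotide was 274.8 and 136.8 in poly(A)+ RNA, although *zip1* shares only 36 nucleotides with it. At 14 to 193 counts per gene for 7 of the 8 genes, small differences between libraries were not detectable.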

Other observations

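Clusters of the hexamer UNAAAC were counted in all 5113 protein-coding genes, and the genes below were chosen after their values were seen. At least 4 hexamers within 100 nucleotides of the sense strand were found in 18 genes, of which 4 were *mei4*, *rec8*, *mcp5* and *spo5*. Of the other 14, 7 ranked below percentile 10 in total RNA. These were *rec27*, *rec25* and *mek1* of meiotic recombination, *mcp6* and *arp1* of nuclear movement, and *mcp3* and *mug4*, at percentiles from 2.84 for *rec27* to 6.36 for *arp1*. The others ranged up to the ribosomal protein gene *rpl3202* at percentile 97.6, and included *mug8* at 52.3 in total RNA and 12.8 in poly(A)+ RNA.

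By density over the whole gene, 142 other protein-coding genes had at least 4.35 hexamers per 1000 nucleotides, the density of *rec10*. Their median percentile in total RNA was 24.5, and 47 of them (33.1%) ranked below percentile 10.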
